A study of Mus musculus with 9 samples.

Results

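The Saa3 Il1a Inhba monocytes were 330 cells of 31759 kept cells (1.04%) in 9 single-cell libraries of CD11b+ cells from the gut of mice. They were chosen from the measured transcripts, counted as unique molecular identifiers (UMIs, a tag that marks each captured RNA molecule). Barcodes with at most 15% mitochondrial UMIs and at least 200 genes were kept, and a member then had to hold at least 10 UMIs of Lyz2 and at least 5 UMIs of Saa3, Il1a and Inhba together. It also had at most 1 UMI of Ly6c2, fewer than 5 UMIs of C1qa, C1qb and C1qc per 10000, under 0.5% of UMIs from S100a8 and S100a9, fewer than 2 UMIs of Cd209a and 0 UMIs of Xcr1 and Cd79a. The gate therefore took mononuclear phagocytes with inflammatory transcripts and was set to leave out Ly6C-high monocytes, C1q macrophages, neutrophils and B cells. Of dendritic cells it left out those with Xcr1 or at least 2 UMIs of Cd209a, and it set no limit on other dendritic genes such as Itgae or Ccr7. Since these genes chose the cells, their levels are given below as a description and without a test. Genes that vary with them from cell to cell were tested, so the tests say what else differed in cells picked by these transcripts.

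All libraries came from the lamina propria of male C57BL/6 mice aged 7 to 8 weeks, with 1 library per group unless given otherwise. The colon was sampled from Nlrc4 deficient mice given 2.5% dextran sodium sulfate (DSS, a detergent-like polymer that injures the colonic epithelium) in drinking water for 7 days, from wildtype mice given DSS, from wildtype mice given ampicillin, neomycin and metronidazole (each 1 g/L) with vancomycin (0.5 g/L) for 1 week or longer, from germ-free wildtype mice (2 libraries) and from specific pathogen-free (SPF) wildtype mice without treatment (2 libraries). The small intestine of normal wildtype mice gave 2 libraries. Nlrc4 deficiency and DSS share 1 library, no library of untreated Nlrc4 deficient mice was analysed here, and the number of mice behind each library is not in the labels.

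Saa3 encodes an acute-phase serum amyloid A protein that mouse macrophages themselves make, Il1a the interleukin-1 alpha that signals as an alarm from damaged or activated cells, and Inhba the activin A subunit of the TGF-beta superfamily. In the gut, circulating Ly6C-high monocytes continually enter the lamina propria, lose Ly6C, gain MHC class II and mature into C1q-positive resident macrophages. In an inflamed colon this course is disturbed, and recruited monocytes stay in a state that makes interleukin-1, chemokines for neutrophils and tissue-remodelling proteins.

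In the library labelled Nlrc4 deficient, transcripts of Nlrc4, the inflammasome sensor of bacterial flagellin and secretion systems, were not lower than elsewhere. Levels are given as CPM, the UMIs of a gene summed over cells and scaled to a common total. Nlrc4 stood at 31.6 CPM in Lyz2-high cells (cells with at least 10 UMIs of Lyz2) of that library, against 14.95 CPM in the DSS library and 10.7 to 16.0 CPM in the other 7. A 3' tag may lie outside a deleted part, so this does not check the label. That library also stood apart in all its cells, in genes picked after their values were seen. Gm47283 had 0.382 CPM there against 45.7 to 302 CPM in the other 8, Mid1 had 1.61 CPM against 8.44 to 82.3 CPM, and Gm42031 had 188 CPM against 3.12 to 7.56 CPM. The part of this difference in the results below was not tested. The libraries held 1450 to 6698 kept cells, with median depths of 3342 to 12322.5 UMIs per cell (8358 in the library labelled Nlrc4 deficient, 4323 in the DSS library). A pair of libraries shared 0 to 18 barcodes, at most 0.740% of the smaller. Scrublet, a doublet caller, marked 133 cells (0.419%), too few for a working call, so doublets were not removed. B-lineage cells were 8.67 to 43.7% of kept cells although the label is CD11b+.

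The gate genes and the CXC chemokines that accompany them are shown here with the 250 bases before their annotated start, because the chemokine genes share a motif. The windows are RefSeq sequence of GRCm38.p6 and run 5′ to 3′ on the strand of the gene. The starts used for Saa3 and Inhba lie inside the annotated span of the gene, which has an earlier start too. Saa3 (ENSMUSG00000040026) lies at chr7:46711998-46719615, Inhba (ENSMUSG00000041324) at chr13:16004256-16031609 and Il1a (ENSMUSG00000027399) at chr2:129299609-129310186. Cxcl3, Cxcl1 and Cxcl2 lie together on chromosome 5, at chr5:90786101-90788093, chr5:90891245-90893121 and chr5:90903899-90905938. Capitals mark matches to a form of the NF-kB site (the letters GGGA, any base, TT, any base, CC) in the CXC genes and to TTGCNNAA, a form of the C/EBP site, in the gate genes. Both strands were searched, the C/EBP matches lie on the strand opposite to the one printed, and no window holds both motifs.
Cxcl1 (chr5:90890995-90891244, + strand): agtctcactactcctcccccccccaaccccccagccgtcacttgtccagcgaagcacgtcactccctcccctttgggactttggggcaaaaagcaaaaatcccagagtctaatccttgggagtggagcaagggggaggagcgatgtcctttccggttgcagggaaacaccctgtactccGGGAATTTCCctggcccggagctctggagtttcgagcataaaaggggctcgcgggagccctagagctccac
Cxcl2 (chr5:90903649-90903898, + strand): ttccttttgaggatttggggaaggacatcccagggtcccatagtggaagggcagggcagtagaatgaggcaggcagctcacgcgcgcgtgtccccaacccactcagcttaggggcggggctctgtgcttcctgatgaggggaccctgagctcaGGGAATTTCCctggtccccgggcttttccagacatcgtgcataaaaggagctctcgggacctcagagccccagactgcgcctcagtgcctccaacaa
Cxcl3 (chr5:90785851-90786100, + strand): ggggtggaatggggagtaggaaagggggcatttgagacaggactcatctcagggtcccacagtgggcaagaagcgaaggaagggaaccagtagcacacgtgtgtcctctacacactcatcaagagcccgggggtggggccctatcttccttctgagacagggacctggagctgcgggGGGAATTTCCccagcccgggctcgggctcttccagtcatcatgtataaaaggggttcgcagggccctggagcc
Saa3 (chr7:46715677-46715926, - strand): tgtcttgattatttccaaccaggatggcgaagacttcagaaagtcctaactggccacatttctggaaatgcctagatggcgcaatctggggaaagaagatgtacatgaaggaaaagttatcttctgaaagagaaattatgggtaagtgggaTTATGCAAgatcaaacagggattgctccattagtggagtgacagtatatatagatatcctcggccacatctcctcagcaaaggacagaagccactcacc
Inhba (chr13:16011601-16011850, + strand): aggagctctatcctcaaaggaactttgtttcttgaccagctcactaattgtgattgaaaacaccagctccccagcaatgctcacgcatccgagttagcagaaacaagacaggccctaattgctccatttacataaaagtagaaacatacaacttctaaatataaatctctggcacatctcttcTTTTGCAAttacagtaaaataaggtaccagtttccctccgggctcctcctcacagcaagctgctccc
Each CXC window holds 1 copy of GGGAATTTCC, which begins 71 bases before the start of Cxcl1, 97 before that of Cxcl2 and 73 before that of Cxcl3. Of 32851 promoter windows of this length, 322 (0.980%) hold the NF-kB letters and 3142 (9.56%) hold TTGCNNAA. The Il1a window holds neither. A match describes letters in the window and not a used site.

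The members were concentrated in the library labelled Nlrc4 deficient with DSS, which held 291 of the 330 (88.2%). The DSS library held 12, the antibiotics library 5, the germ-free libraries 0 and 7, the small intestine libraries 0 and 1, and the SPF colon libraries 9 and 5. As a share of kept cells this was 4.34% (exact binomial 95% interval 3.87 to 4.86) in the Nlrc4 DSS library and 0.288% (0.149 to 0.503) in the DSS library. The other shares were 0.206% with antibiotics, 0% and 0.246% in germ-free colon, 0% and 0.0183% in small intestine, and 0.344% and 0.206% in SPF colon. Where no member was found, the exact upper limit was 0.254% in the first germ-free library and 0.101% in the first small intestine library, and 3 cells of the total would be 0.207% and 0.0821%. These intervals cover counting error only.

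The share in the Nlrc4 DSS library was 15.1 times that in the DSS library. Its Lyz2-high cells were themselves more frequent, at 37.3% of kept cells against 14.1%, and within Lyz2-high cells the shares were 11.6% (10.4 to 12.97) against 2.04% (1.06 to 3.54), a ratio of 5.70. The gate uses absolute UMIs and so favours deep cells. Cells thinned to 3000 UMIs before gating gave 4.71% against 0.340%, a ratio of 13.8. The limits stayed in absolute UMIs, so in thinned cells the limit on Ly6c2 was looser and that on Lyz2 stricter. Cells under 3000 UMIs were left out, so the thinned members are not the same set of cells. Without the limit on Ly6c2, 937 cells (14.0%) passed in the Nlrc4 DSS library against 78 (1.87%) in the DSS library, a ratio of 7.47. With 1 library on each side this compares those libraries, and no test of Nlrc4 deficiency can be made. In wildtype mice with DSS the share was 0.288%, against a mean of 0.275% in SPF colon, a ratio of 1.05, and its interval overlapped those of both SPF libraries. That ratio was 2.92 after thinning before the gate and 2.44 with a gate of at least 10 UMIs.

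The small intestine minus SPF colon difference was -0.266 percentage points and the germ-free minus SPF colon difference was -0.152 percentage points. Exact two-sided permutation tests over libraries (n = 2 each) gave p = 0.33 and p = 0.667, and 0.33 is the smallest p this design allows. The small intestine libraries were both below both SPF colon libraries, whereas the germ-free libraries overlapped them. That overlap was lost in cells thinned before gating, where both germ-free libraries held 0 members (difference -0.116 percentage points). The mean SPF colon share there was itself only 0.116%, so this rests on few cells. The overlap was also lost without the Ly6c2 limit (-0.857 percentage points), and each setting gave an exact permutation p = 0.33.

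**Figure D1:**
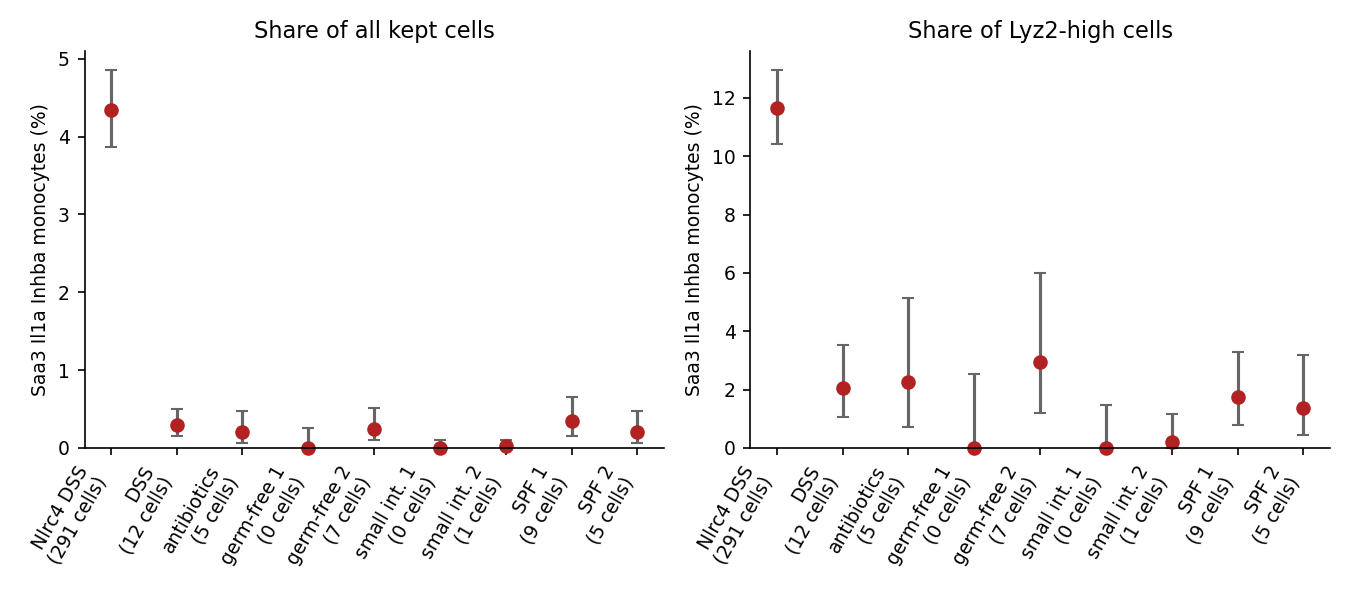
Share of Saa3 Il1a Inhba monocytes in each of the 9 libraries, as a percentage of all kept cells (left) and of Lyz2-high cells (right), with exact binomial 95% intervals as bars and the number of members below each label. The Nlrc4 DSS library sits at 4.34% and 11.6%, and the other 8 libraries at 0.344% or less of kept cells.

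The 3 gate genes were spread unevenly over the cells. Among the 291 members of the Nlrc4 DSS library, Il1a ranged from 0 to 92 UMIs with a median of 7, Saa3 from 0 to 773 with a median of 2, and Inhba from 0 to 61 with a median of 2. Il1a was detected in 260 cells, Inhba in 219 and Saa3 in 192. All 3 were detected in 130 cells, and 41 cells passed on 1 gene alone. Saa3 was the most skewed, since 10 cells held 36.2% of its UMIs. The members were thus mostly Il1a-positive cells, of which a smaller number carried very high Saa3.

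The 12 DSS members differed in which gene had admitted them. Saa3 was detected in 9 of them, with a median of 26.5 and at most 97 UMIs, whereas Il1a was detected in 4 and Inhba in 6. Summed over members, Saa3 stood at 4595 CPM in the Nlrc4 DSS library and 5444 CPM in the DSS library, Il1a at 1099 against 233.7 CPM, and Inhba at 594 against 526 CPM. The 7 germ-free members held 0 UMIs of Saa3, and 28 Saa3 UMIs among the 5 antibiotics members lay in 1 cell. In SPF colon, 1 of 14 members had 99 UMIs of Saa3 and the other 13 had at most 15. The only small intestine member held 9 UMIs of Il1a, 6 of Inhba, 0 of Saa3 and 220 of Spp1.

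**Figure D2:**
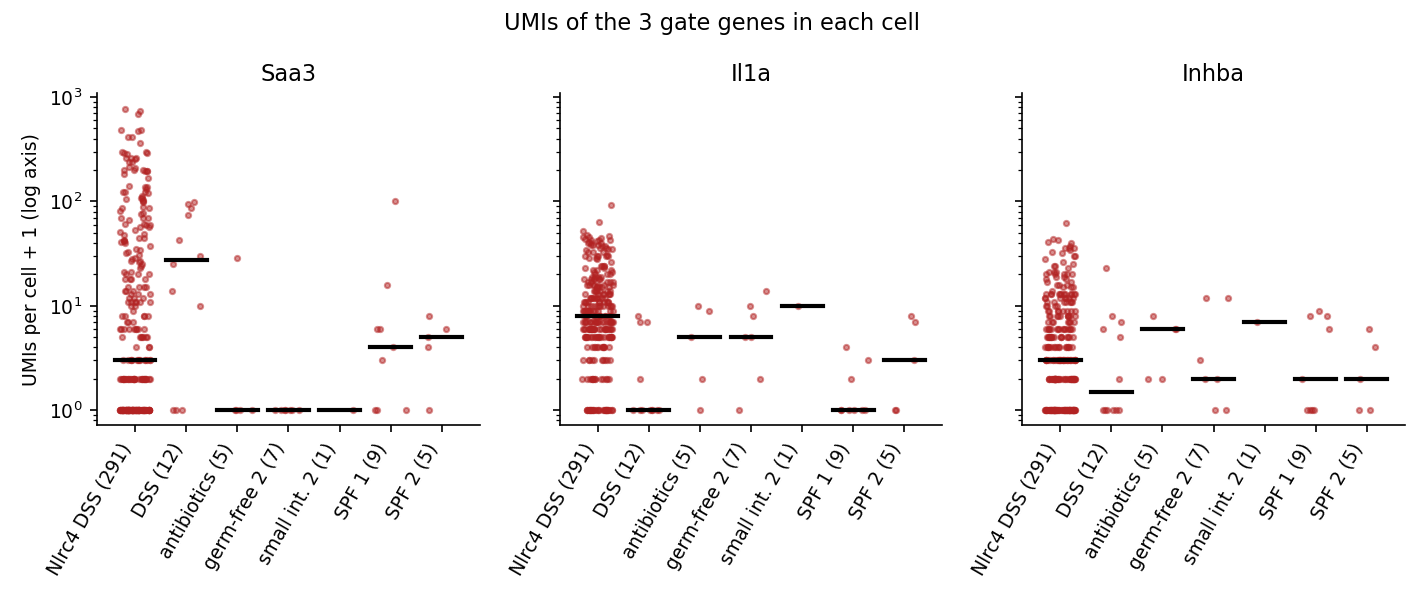
UMIs of Saa3, Il1a and Inhba in each member, plus 1 and on a log axis, for the 7 libraries that held members (number of cells in brackets). Each point is a cell and each bar a median. Saa3 reaches 773 UMIs in the Nlrc4 DSS library and is at 0 in all 7 germ-free cells.

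Free RNA in the droplets could supply a few UMIs of these genes. In B-lineage cells of the Nlrc4 DSS library (854 cells, median 6697 UMIs), 14.2% held a UMI of Saa3, 7.38% one of Il1a and 3.63% one of Inhba, against 66.0%, 89.4% and 75.3% of members (median 10330 UMIs). After thinning each cell to 3000 UMIs these shares were 7.21%, 3.48% and 2.19% in B-lineage cells and 52.5%, 79.2% and 56.7% in the 284 members deep enough. Members were chosen for these transcripts before thinning, so their higher shares were fixed by the gate. Whether cells near 5 UMIs passed on free RNA was not tested. The edge of the gate was gradual. The 25 members with a gate sum of exactly 5 UMIs had 7273 CPM of Il1b, and the 24 cells left out with a sum of 4 had 7204 CPM. The 123 members with 1 UMI of Ly6c2 had 9774 CPM of Il1b, and the 75 cells left out with 2 UMIs had 9487 CPM. Of the 937 cells past the other limits in the Nlrc4 DSS library, Ly6c2 was at 0 in 184, at 1 in 107, at 2 to 4 in 187 and at 5 or more in 459, a run without a gap.

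The members carried markers of mononuclear phagocytes, with Csf1r (the receptor for the macrophage growth factor CSF1) at 438 CPM, Fcgr1 (CD64) at 138 CPM, Cd68 at 280 CPM and Itgam (CD11b) at 249 CPM in the Nlrc4 DSS library. Cd163, a scavenger receptor of resident macrophages, was at 0. In C1q macrophages of the DSS library Cd163 was also low, at 14.97 CPM (5 UMIs), so a 0 hardly separates the classes. Adgre1, another macrophage marker, was detected in 56.7% of Nlrc4 DSS members, against 54.9% of C1q macrophages and 46.9% of Ly6c2+ monocytes there. After thinning to 3000 UMIs these shares were 30.6%, 43.5% and 20.1%. In the DSS library they were 25%, 56.1% and 45.7% before thinning. Among other cell types, 3 of 9 neutrophil markers (Ly6g, Ngp and Camp) were at 0 and the list summed to 120 CPM, against 125 CPM in Ly6c2+ monocytes. Of 8 dendritic cell markers Itgae and Siglech were at 0 and the list summed to 298 CPM, against 1186 CPM in cells that met the other limits but failed the Saa3, Il1a and Inhba gate. B and plasma cell markers summed to 268 CPM, T and innate lymphoid markers to 54.2 CPM, fibroblast and endothelial markers to 89.1 CPM, epithelial markers to 13.1 CPM, eosinophil markers to 1.31 CPM and mast cell markers to 0.326 CPM. In the 12 DSS members these 8 lists summed to between 23.4 and 432 CPM, with Ly6g, Camp and Itgae at 0. Hp, F10 and Plac8, genes of classical monocytes, were at 439, 852 and 3599 CPM in members and 29.8, 98.4 and 830 CPM in C1q macrophages of the Nlrc4 DSS library. Cxcl1, put forward as a marker, was at 2304 CPM in members, 1407 CPM in Ly6c2+ monocytes, 1801 CPM in C1q macrophages and 864 CPM in below-gate cells, so it was shared by all 4 classes. Spp1 (osteopontin, a secreted matrix protein) was at 259 CPM in members and 422 CPM in Ly6c2+ monocytes of that library, and thus did not single out the members.

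Members were compared with 3 classes from the same libraries. Ly6c2+ monocytes had at least 5 UMIs of Ly6c2 and under 5 of the gate genes, C1q macrophages had at least 20 C1q UMIs per 10000 with Ly6c2 at most 1, and below-gate cells met the whole rule but held under 5 UMIs of Saa3, Il1a and Inhba together. For each library the UMIs of a class were added up, and edgeR's quasi-likelihood test was run on these sums with the library as a term. The Nlrc4 DSS and DSS libraries had at least 10 cells of every class, so each test rests on 2 libraries of different mice, and the DSS members in it were 12 cells (1 UMI is 11.7 CPM). The medians of the 12 and 291 members were 6659 and 10333 UMIs per cell.

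Against Ly6c2+ monocytes of the same colon, members had more Il1rn and Il1b, more of the 3 neutrophil-attracting chemokines and of 4 of 8 MHC class II genes, and less of 5 of 13 monocyte genes and 8 of 16 immediate-early and heat shock genes. By edgeR, 136 of 8004 genes (1.7%) were higher and 92 (1.15%) lower at an adjusted p under 0.05. Il1rn, the natural antagonist of the interleukin-1 receptor, was at 2101 CPM in members of the Nlrc4 DSS library against 744 CPM in its monocytes, and at 3295 against 665 CPM in the DSS library. Its log2 fold change was 1.88 ± 0.15 (SE, edgeR adjusted p = 1.1e-31), and it was higher in all 6 libraries with at least 5 cells of both classes, by 0.78 to 2.42. Il1b, the secreted interleukin-1, stood at 10370 against 4460 CPM in the Nlrc4 DSS library and at 4743 against 2851 CPM in the DSS library (log2 fold change 0.97 ± 0.11, edgeR adjusted p = 4.5e-16). Of 7 tested genes of the interleukin-1 family, only these 2 were called, with a median log2 fold change of 0.03 against -0.03 over all genes.

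All 3 tested neutrophil-attracting chemokines, whose promoters are printed above, were higher. Cxcl2 was at 22260 against 16300 CPM in the Nlrc4 DSS library and 6180 against 4536 CPM in the DSS library (log2 fold change 0.44 ± 0.09). Cxcl1 rose by 0.80 ± 0.17 and Cxcl3 by 2.30 ± 0.24 on the log2 scale, Cxcl3 with 413 against 264 CPM in the Nlrc4 DSS library and 1040 against 42.0 CPM in the DSS library. The SE of Cxcl3 does not show how far these 2 libraries differed. The median of the 3 was 0.80. Among 9 CC chemokines, which draw monocytes and T cells, 4 were higher and 2 lower with a median of 0.54. Ccl5 had 1476 against 438 CPM and Ccl4 3240 against 1907 CPM in the Nlrc4 DSS library, with log2 fold changes of 1.66 ± 0.21 and 1.27 ± 0.15, whereas Ccl6 fell by 1.20 on that scale. Cxcl9, an interferon-gamma target that attracts T cells, rose by 1.73 ± 0.18, with 944 against 284 CPM in the Nlrc4 DSS library and 1484 against 440 CPM in the DSS library. The receptor Ccr2, by which monocytes leave the marrow, fell by 0.83 ± 0.20 on the log2 scale.

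Genes of arginine metabolism and some secreted host-defence proteins were higher. Arg1 (arginase 1, which breaks arginine down to urea and ornithine) had 71.5 CPM in members of the Nlrc4 DSS library against 0 in its 239 monocytes, at least 51.9-fold higher with 3 UMIs over the class as the floor, and 35.0 against 0.591 CPM in the DSS library. Nos2, which turns arginine into nitric oxide, had 89.7 against 6.43 CPM and 23.4 against 11.8 CPM (log2 fold change 3.13 ± 0.47). Slc7a2, a carrier that brings arginine into the cell, rose by 3.09 ± 0.50. In the DSS members Arg1 and Nos2 rested on 3 and 2 UMIs, each in 1 cell, and Timp1, Lcn2 and Spp1, described below, on 9, 10 and 17 UMIs, each in 2 cells. Of 7 acute-phase and antimicrobial genes 4 were higher and 0 lower (median 1.12), among them Lcn2 (lipocalin 2, which binds bacterial siderophores) at 129 against 29.9 CPM and 117 against 11.2 CPM (2.45 ± 0.38), Slpi, a protease inhibitor (1.12 ± 0.15), and Acod1, the enzyme that makes itaconate (0.74 ± 0.18). Slpi stood at -0.20 in a fit of 5 libraries that left out the DSS library and kept the Nlrc4 DSS library.

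Some tissue-remodelling and lipid-mediator genes were higher, 4 of 13 and 4 of 9. Timp1, an inhibitor of matrix metalloproteinases, was at 169 against 27.1 CPM in the Nlrc4 DSS library and 105 against 14.2 CPM in the DSS library (log2 fold change 2.71 ± 0.38, edgeR adjusted p = 2.4e-10). Mmp14, a membrane-bound collagenase, was at 310 against 37.7 CPM and 911 against 224 CPM (2.53 ± 0.24), and its sign was the same in all 6 libraries. Fn1 (fibronectin) fell by 1.00 ± 0.24 on the log2 scale, but stood at 0.11 with a gate of at least 3 UMIs. At that gate the first SPF colon library and the antibiotics library held 12 members each, enough to enter the fit, so the libraries changed too. Among 13 matrix genes 4 were higher and 1 lower, and Spp1 did not pass (-0.04 ± 0.27). Of 9 genes of prostaglandin and leukotriene synthesis 4 were higher and 1 lower (median 0.98), with Ptgs2 (cyclooxygenase 2) at 4484 against 2361 CPM and 3061 against 1468 CPM (0.98 ± 0.13) and Ptges, the prostaglandin E synthase that follows it, at 67.5 against 26.6 CPM and 81.8 against 7.68 CPM (1.77 ± 0.42). Fpr2, a receptor for formyl peptides and serum amyloid A, rose by 2.65 ± 0.24, Sdc1 (syndecan 1) by 2.58 ± 0.37 and Gpr84, a receptor for medium-chain fatty acids, by 2.55 ± 0.39.

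Of 8 MHC class II genes 4 were higher and 0 lower (median 0.55), with H2-Eb1 at 2748 against 1216 CPM in the Nlrc4 DSS library and 2734 against 1580 CPM in the DSS library (0.98 ± 0.14) and Cd74, the invariant chain, at 8455 against 4124 CPM and 6718 against 5312 CPM (0.68 ± 0.11). Both were higher in all 6 libraries. Of 11 tested genes of the resident macrophage programme 3 were higher and 0 lower (median 0.05). Of 13 genes of the classical monocyte programme 5 were lower and 0 higher (median -0.65), a list tied to Ly6c2, which the rule limits in members and requires in the monocytes. Ifitm6 had 125 against 376 CPM in the Nlrc4 DSS library and 35.05 against 331 CPM in the DSS library (-1.85 ± 0.27), and Plac8 fell by 0.73 on the log2 scale, while Hp (0.25 ± 0.21) and F10 (0.31 ± 0.19) did not pass. Of 16 immediate-early and heat shock genes, which respond quickly to stimulation and stress, 8 were lower and 0 higher (median -0.70), with Egr1 at 47.0 against 151 CPM and 175 against 410 CPM and Fos at 178 against 369 CPM and 654 against 1413 CPM. Tnip1 and Sod2, from the list of NF-kB pathway genes, rose by 0.94 and 0.89, 2 of 4 called among 18. Of 13 iron and redox genes 4 were higher, including Fth1 (ferritin heavy chain) by 0.77 and Slc7a11, the cystine carrier, by 1.11. The 20 type I interferon genes gave no single direction, with 2 higher and 2 lower among 19 tested.

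These calls depended on the test. DESeq2 called 29 genes (24 higher and 5 lower) and a fit without the library term 1, while cells thinned to 3000 UMIs gave 100 calls. Of the genes named here, Timp1, Fpr2, Sdc1, Gpr84, Mmp14, Lcn2, Ccl4, Ccl5, Cxcl9, Il1rn, Ifitm6 and Egr1 also passed with DESeq2, whereas Il1b, the CXC chemokines and MHC class II did not.

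**Figure D3:**
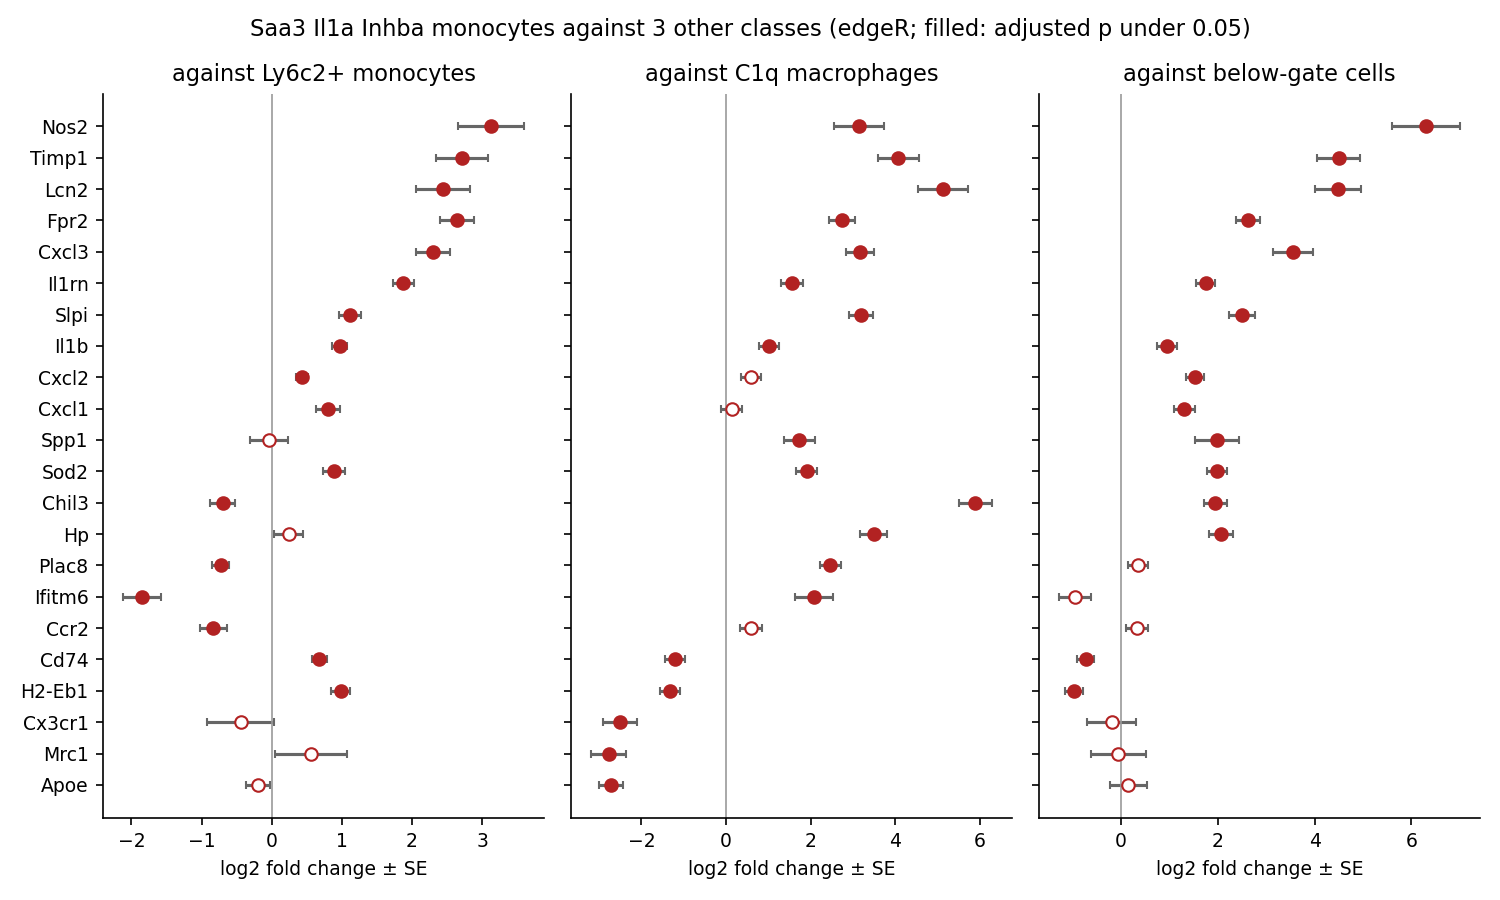
Log2 fold changes ± SE of 22 genes in Saa3 Il1a Inhba monocytes against Ly6c2+ monocytes, C1q macrophages and below-gate cells, by edgeR over the Nlrc4 DSS and DSS libraries. Filled points had an adjusted p under 0.05. Il1rn and Il1b are higher in all 3 panels, Cd74 and H2-Eb1 are higher against monocytes and lower against the other classes, and the point of Cxcl1 against C1q macrophages (0.14) is unfilled.

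Against C1q macrophages, members had more of the monocyte programme and less of the resident programme. By edgeR, 174 of 5423 genes (3.21%) were higher and 159 (2.93%) lower. Of 12 tested genes of the classical monocyte programme 8 were higher and 0 lower (median 1.77), led by Chil3, a chitinase-like protein of mouse monocytes, at 938 against 18.1 CPM in the Nlrc4 DSS library and 350.5 against 2.99 CPM in the DSS library (log2 fold change 5.89 ± 0.39, edgeR adjusted p = 4.9e-24). Hp (haptoglobin) rose by 3.50 ± 0.32, F10 (coagulation factor X) by 3.09 ± 0.29 and Plac8 by 2.46 ± 0.25. Of 13 genes of the resident macrophage programme 10 were lower and 0 higher (median -2.43), a list beside the C1q genes that defined those macrophages. Mrc1, the mannose receptor, had 21.2 against 118 CPM in the Nlrc4 DSS library and 0 against 254 CPM in the DSS library (-2.78 ± 0.41). Cx3cr1, the fractalkine receptor, had 11.7 against 56.9 CPM and 35.0 against 362 CPM (-2.51 ± 0.40), and Apoe, the lipid carrier, had 1396 against 4625 CPM and 549 against 9439 CPM (-2.71 ± 0.29).

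The chemokines were divided between these classes. Of 9 tested CC chemokines 2 were higher and 4 lower in members, with a median log2 fold change of 0.19. Ccl8, Ccl7, Ccl12 and Ccl2, which attract monocytes through Ccr2 and related receptors, were lower in members, with Ccl7 at 8.48 against 175 CPM and 46.7 against 195 CPM (-3.86 ± 0.45) and Ccl2 at 175 against 418 CPM and 81.8 against 326 CPM (-1.40 ± 0.29). Pf4 (platelet factor 4) had 2.28 against 182 CPM in the Nlrc4 DSS library and 0 against 102 CPM in the DSS library. Il22ra2, the soluble decoy receptor for interleukin-22, was at 0 in members of both libraries and at 106 and 95.8 CPM in C1q macrophages, so at least 108-fold and 2.73-fold lower. Cxcl3 was higher in members (3.17 ± 0.34), but Cxcl1 and Cxcl2 did not pass, at 0.14 ± 0.25 and 0.59 ± 0.24. Csf3, the growth factor for neutrophils, was at 154 against 6.47 CPM and 222 against 11.97 CPM (4.45 ± 0.48), and Il6 and Osm rose by 1.27 and 1.43.

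Of 7 acute-phase and antimicrobial genes 5 were higher and 1 lower (median 3.14), with Lcn2 at 129 against 1.29 CPM and 117 against 8.98 CPM (5.12 ± 0.59) and Slpi at 2930 against 518 CPM and 1157 against 56.9 CPM (3.20 ± 0.28). Arg1 had 71.5 CPM in members of the Nlrc4 DSS library against 0 in its C1q macrophages, at least 18.4-fold higher, and 35.0 against 8.98 CPM in the DSS library. Of 9 coagulation genes 5 were higher and 0 lower, among them F10 and Serpinb2, an inhibitor of plasminogen activators (2.77 ± 0.51). Of 12 matrix genes 5 were higher and 3 lower, with Thbs1 (thrombospondin 1) at 2149 against 536 CPM and 2407 against 419 CPM (2.29 ± 0.24). Of 14 pattern recognition genes 6 were higher and 0 lower, including Trem1 (2.02 ± 0.34) and the C-type lectins Clec4d (1.64 ± 0.27) and Clec4e (1.47 ± 0.24). Interleukin-1 genes were higher as against monocytes, Il1rn by 1.57 ± 0.26 and Il1b by 1.01 ± 0.24. Of 11 inflammasome genes 0 were called, Nlrp3 included (0.48 ± 0.24, edgeR adjusted p = 0.34).

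In this comparison 5 of 7 MHC class II genes were lower (median -1.15), with H2-Eb1 at 2748 against 8105 CPM and 2734 against 6179 CPM. Members thus lay between Ly6c2+ monocytes and C1q macrophages in H2-Eb1 and Cd74 in both libraries. Spp1 was higher, at 259 against 136 CPM and 199 against 2.99 CPM (1.74 ± 0.37). It stood at -0.25 in a fit of 5 libraries that left out the DSS library and kept the Nlrc4 DSS library. Dcn, a fibroblast gene, was at 28.7 CPM in members and 251 CPM in C1q macrophages of the Nlrc4 DSS library. The summed fibroblast and endothelial markers there were 89.1 against 598 CPM and the B and plasma cell markers 268 against 1241 CPM, and their part in genes lower in members was not tested. DESeq2 called 71 genes, the fit without the library term 32 and thinned cells 77, and 171 were called with Scrublet's doublets left out. Chil3, Hp, F10, Lcn2, Csf3, Thbs1, Pf4, Ccl7 and Mrc1 passed with DESeq2, and Apoe, Ccl2, Il22ra2, Cxcl3 and Spp1 did not.

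Below-gate cells met the same limits on Lyz2, Ly6c2 and C1q but held under 5 UMIs of the gate genes together. In the Nlrc4 DSS library 30.05% of them held a UMI of Il1a, 19.7% one of Saa3 and 16.4% one of Inhba. Their median depth there was 7949 UMIs, against 10333 in members. Here 255 of 6878 genes (3.71%) were higher in members and 231 (3.36%) lower by edgeR. The genes lower in members included those of dendritic cells, of which 4 of 6 tested were lower and 0 higher. Itgae (CD103) was at 0 in members of both libraries against 54.2 and 203 CPM, at least 55.4-fold and 5.79-fold lower. Flt3, the growth factor receptor of dendritic cells, was at 2.94 against 58.7 CPM and 0 against 99.5 CPM, and Ccr7, the receptor for migration to lymph nodes, at 107 against 824 CPM and 81.8 against 796 CPM (-2.97 ± 0.25). Of 9 MHC class II genes 7 were lower (median -0.84), with H2-DMb2 at 7.83 against 122 CPM and 0 against 134 CPM. The below-gate cells were thus in part dendritic by these markers, and the part of that in the other differences was not tested.

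The genes higher in members than in below-gate cells included chemokines, host-defence proteins and matrix genes. All 3 CXC chemokines were higher (median 1.52), Cxcl2 at 22260 against 8723 CPM and 6180 against 2010 CPM (1.52 ± 0.18) and Cxcl1 by 1.31 ± 0.22. Of 7 acute-phase genes 5 were higher (median 2.06), with Nos2 at 89.7 against 1.13 CPM and 23.4 against 0 CPM and Lcn2 at 129 against 6.21 CPM and 117 against 3.83 CPM (4.48 ± 0.47). Timp1 rose by 4.49 ± 0.44, with 169 against 7.90 CPM and 105 against 3.83 CPM, and was among 5 of 12 matrix genes that were higher. Spp1 had 259 against 102 CPM in the Nlrc4 DSS library and 199 against 0 CPM in the DSS library, at least 17.3-fold higher there (log2 fold change 1.98 ± 0.45, edgeR adjusted p = 0.0085). Of 15 pattern recognition genes 8 were higher, Cd14 (the lipopolysaccharide co-receptor) by 1.88 ± 0.20. Tnf was higher, with 1407 against 448 CPM and 269 against 134 CPM. Il10 rose by 1.45 ± 0.32, Ccl3 by 1.66 ± 0.22 and Ccl4 by 1.77 ± 0.23, whereas Il1r2, the decoy receptor for interleukin-1, fell by 1.83 ± 0.24 on the log2 scale. Of 15 interferon-gamma response genes 6 were higher, including Gbp2 by 1.61 ± 0.22, and of 13 iron, heme and redox genes 6 were higher, including Hmox1 (heme oxygenase 1) by 1.23 ± 0.20. DESeq2 called 136 genes (85 higher and 51 lower), the fit without the library term 25 and thinned cells 59, and Nos2, Timp1, Lcn2, Flt3 and Ccr7 passed the first 2 of these.

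**Figure D4:**
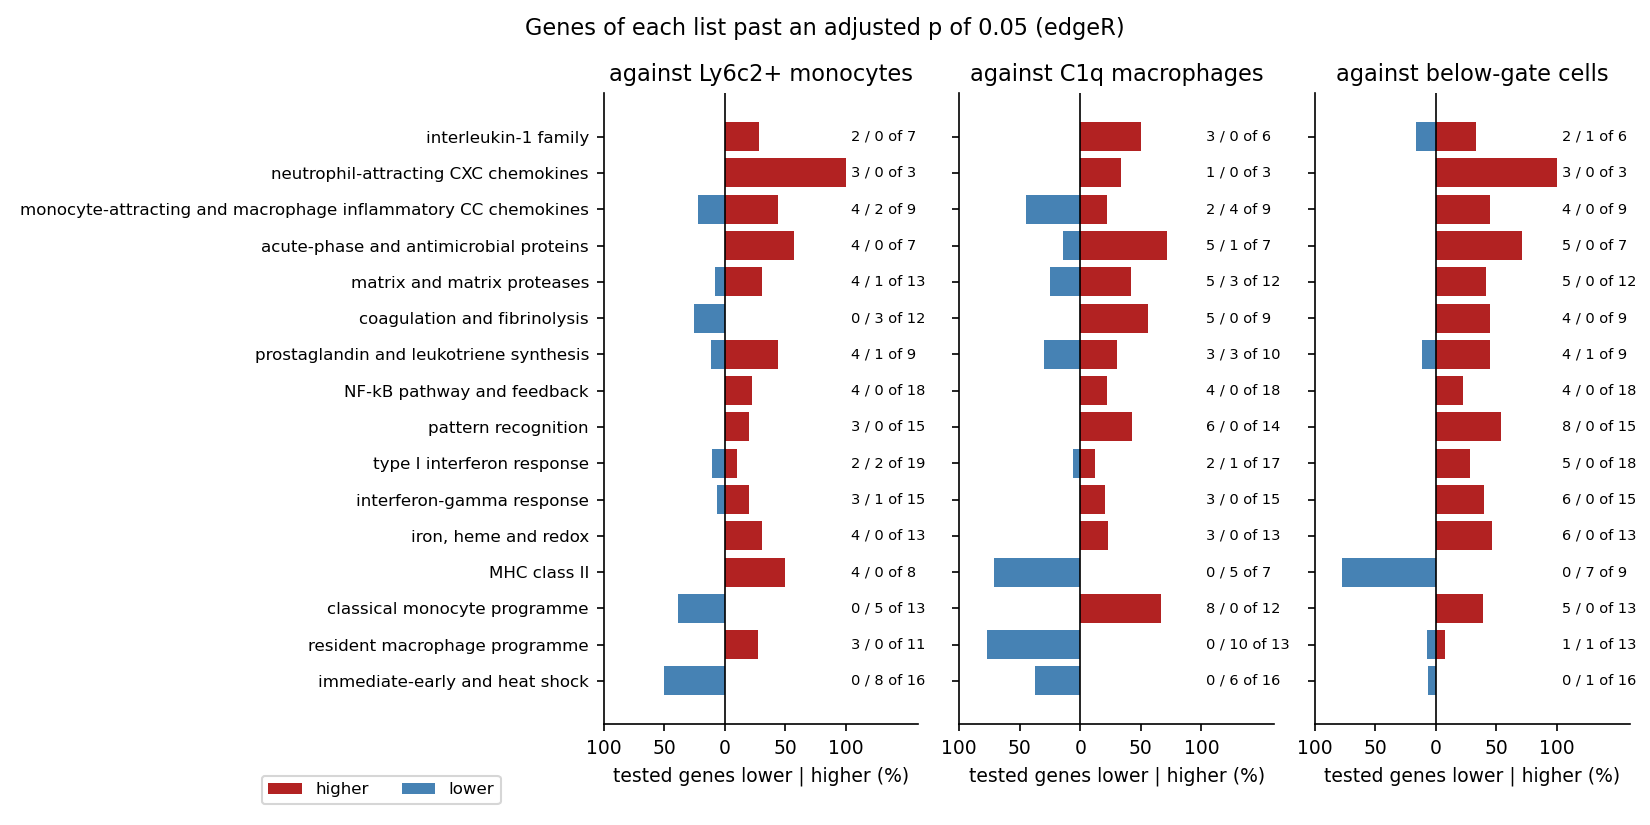
Genes of 16 lists that were higher (right) or lower (left) in Saa3 Il1a Inhba monocytes, as a percentage of the genes tested, with the number higher, the number lower and the number tested beside each bar, against 3 other classes (edgeR). MHC class II is higher in 4 of 8 against Ly6c2+ monocytes and lower in 5 of 7 against C1q macrophages, and the resident macrophage programme is lower in 10 of 13 against C1q macrophages.

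Cells past the Saa3, Il1a and Inhba gate that still held at least 5 UMIs of Ly6c2 were the class most like the members, a comparison added after the data were seen. There were 562 of them, 459 in the Nlrc4 DSS library and 56 in the DSS library. In the Nlrc4 DSS library members and these cells had 2304 and 2311 CPM of Cxcl1, 1099 and 887 CPM of Il1a, 594 and 640 CPM of Inhba, and 4595 and 2084 CPM of Saa3. By edgeR only 40 of 7679 genes (0.521%) were higher and 36 (0.469%) lower in members. Of the 18 NF-kB genes 0 were called. Arg1 was at 71.5 against 14.4 CPM (2.44 ± 0.44), Pltp (phospholipid transfer protein) rose by 2.35 ± 0.34, Timp1 by 1.32 ± 0.31 and H2-Aa by 0.99 ± 0.14, 1 of 4 MHC class II genes higher among 7. Chil3 fell by 1.36 on the log2 scale, with Chil3 at 938 against 1508 CPM and 350.5 against 1880 CPM. Under other settings few calls were made. DESeq2 called 1 gene (Pltp), thinned cells gave 1 and the fit over 6 libraries 0, with 99, 256 and 107 genes at an unadjusted p under 0.05.

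Between libraries the members could only be set side by side, since each condition with 10 or more members had 1 library or, for SPF colon, 2 small ones that were summed. A gene was counted as different when it had at least 10 UMIs over both sides and a log2 ratio past 1 with 5 CPM added to each. Between the Nlrc4 DSS members and the DSS members, 1890 of 8489 genes (22.3%) were higher and 1073 (12.6%) lower, and 491 of these had exact Poisson intervals that did not overlap. Such intervals cover counting error only and leave out the spread between cells and between mice. With 20 CPM added, 449 were higher and 439 lower, so the lean towards higher genes was seen with 5 CPM added, less than 1 UMI (11.7 CPM) in the DSS members, and not with 20. Cxcl1 was at 2304 CPM (2251 to 2358) in Nlrc4 DSS members and 432 CPM (304 to 596) in DSS members, and Cxcl2 at 22260 against 6180 CPM. Of the 37 Cxcl1 UMIs in DSS members, 23 lay in 1 cell. Ccl5 was at 1476 against 257 CPM, Tnf at 1407 against 269 CPM, Il10 at 926 against 117 CPM and Cxcl10 at 1290 against 315 CPM. Il1rn (2101 against 3295 CPM) and Cxcl9 (944 against 1484 CPM) went the other way. Timp1, Lcn2 and Spp1 were at 169 and 105, 129 and 117, and 259 and 199 CPM, with overlapping intervals and each in 2 of the 12 DSS members.

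The same libraries also differed in their Ly6c2+ monocytes, so part of these ratios was not particular to the members. The log2 ratio of Cxcl1 was 2.40 in members and 2.62 in Ly6c2+ monocytes, that of Cxcl2 was 1.85 and 1.84, and that of Ccl5 was 2.50 and 2.16. Tnf (2.37 against 0.60) and Cxcl10 (2.02 against -0.17) had larger ratios in members, a difference that was not tested. Ccl24, a chemokine for eosinophils, had 152 CPM in Nlrc4 DSS members against 0 in DSS members, at least 4.35-fold higher, and 12.4 against 1.77 CPM in the monocytes, but 3 cells held 70.9% of its UMIs. Edn1 (endothelin 1) had 123 against 0 CPM and Oasl1, an interferon-induced gene, 514 against 23.4 CPM. Txnip, a regulator of thioredoxin and glucose uptake, had 26.4 against 257 CPM. By list, 7 of 10 CC chemokines were higher (median log2 ratio 1.21 against 0.06 over all genes), as were 7 of 13 cytokines of the TNF, IL-6 and IL-12 families and 8 of 12 coagulation genes, while 9 of 16 immediate-early and heat shock genes were lower and 0 of 18 NF-kB genes differed.

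Beside the 14 SPF colon members, the 12 DSS members had 307 of 2914 genes (10.5%) higher and 374 (12.8%) lower, of which 159 had intervals apart. Spp1 was at 199 against 0 CPM, at least 7.43-fold higher, Lcn2 at 117 against 0 CPM and the growth factor Areg (amphiregulin) at 152 against 0 CPM. AA467197 was at 584 against 8.91 CPM. Interferon-induced genes were among those higher, with Cxcl9 at 1484 against 544 CPM, Gbp2 at 783 against 250 CPM and Ifitm1 at 619 against 35.6 CPM. Cxcl1 was lower, at 432 against 1141 CPM, as was Lpl (lipoprotein lipase), at 0 against 116 CPM. The SPF libraries themselves disagreed on Cxcl1, with 1731 and 284 CPM.

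Beside the same SPF colon members, the Nlrc4 DSS members had 1545 of 8500 genes (18.2%) higher and 922 (10.8%) lower, of which 482 had intervals apart, and with 20 CPM added 341 were higher and 311 lower. Both DSS comparisons share the SPF libraries, so the values are given side by side and not counted as agreeing. Spp1 was at 259 CPM in Nlrc4 DSS members and 0 in SPF members, Timp1 at 169 and 0, Lcn2 at 129 and 0, and Ccl5 at 1476 and 17.8 CPM. Of 20 type I interferon genes 14 were higher and 1 lower (median log2 ratio 1.39 against -0.01 over all genes), with Irf7, a regulator of interferon genes, at 116 against 0 CPM, Rsad2 (viperin) at 340 against 35.6 CPM and Ifit1 at 109 against 17.8 CPM. In the Ly6c2+ monocytes of the same libraries the median of that list was 0.23. Il1b was at 10370 CPM (10250 to 10480) in Nlrc4 DSS members against 6363 CPM (5905 to 6847) in SPF members, with intervals apart but a log2 ratio of 0.70.

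**Figure D5:**
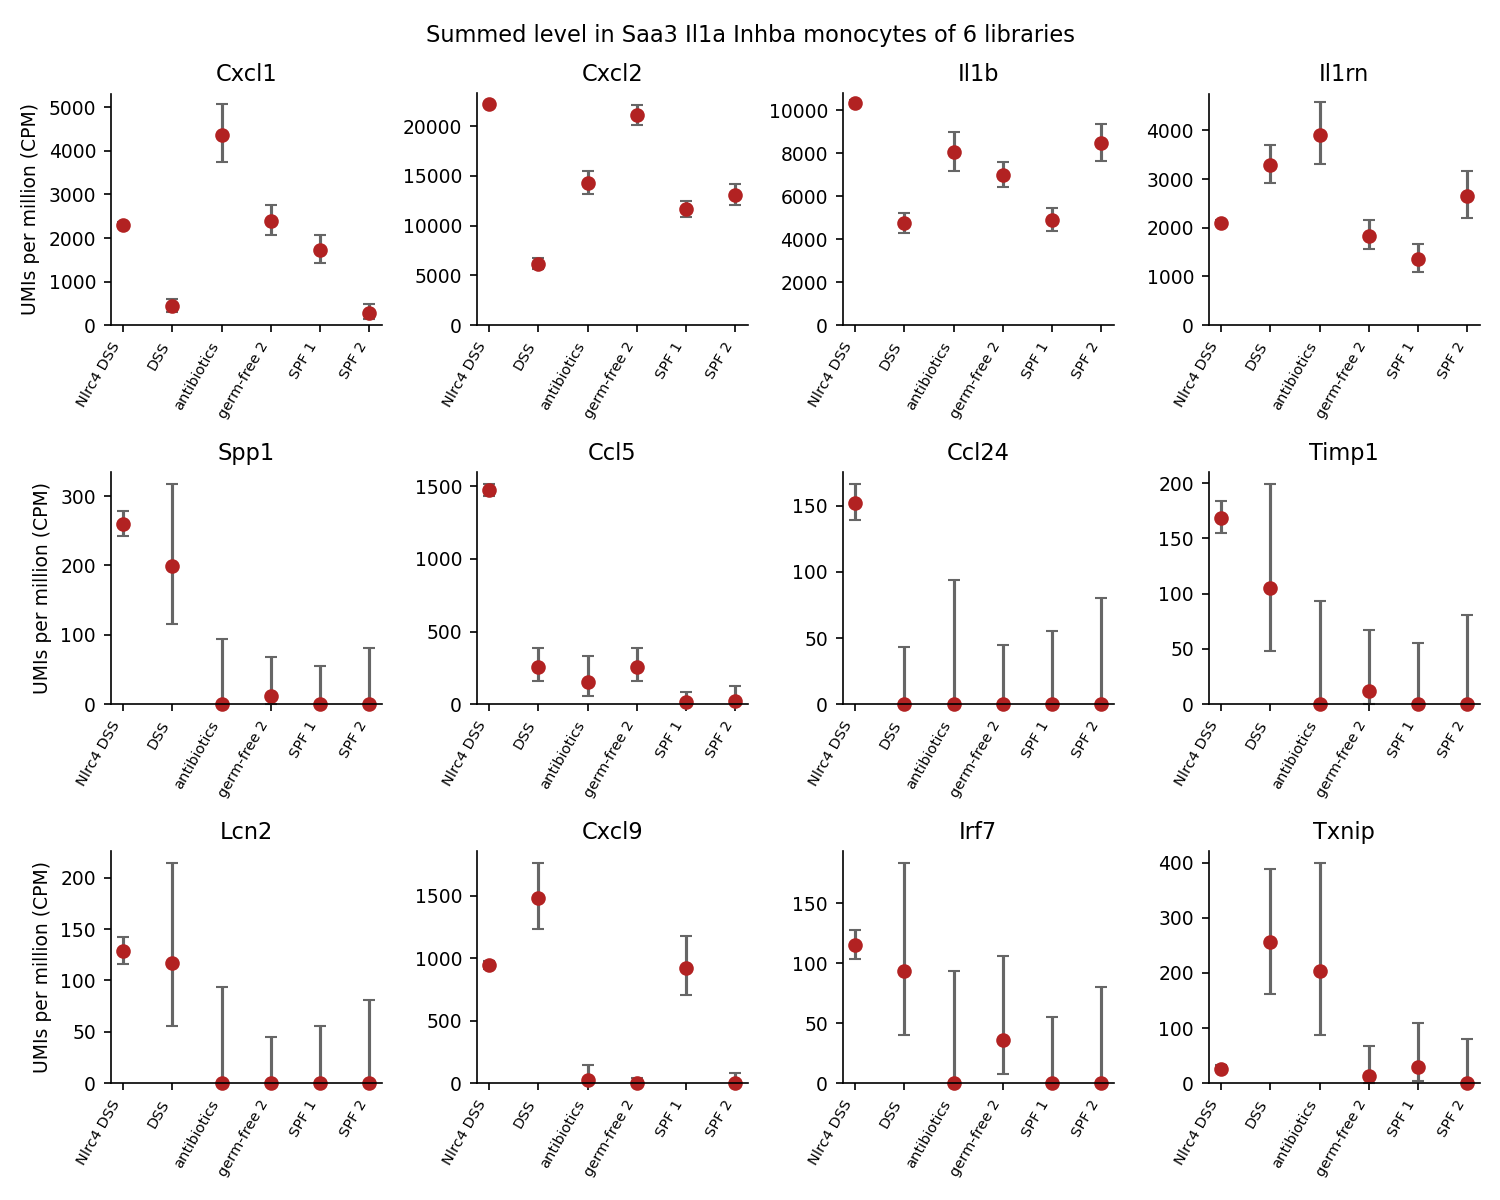
Level of 12 genes summed over the Saa3 Il1a Inhba monocytes of 6 libraries, in CPM, with exact Poisson 95% intervals (counting error only) as bars. The Nlrc4 DSS library rests on 291 cells and the others on 5 to 12. Spp1, Timp1 and Lcn2 are at 105 CPM or more in both DSS libraries and at 12.1 CPM or less in the other libraries shown. In the DSS library each of these genes lay in 2 of 12 members. The only small intestine member, with 220 UMIs of Spp1, is not shown.

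The genes named above were detected in very different shares of the members. In the Nlrc4 DSS library Hp was detected in 210 of 291 members (72.2%), Mmp14 in 203 (69.8%) and Fpr2 in 186 (63.9%), against 4.57%, 4.92% and 2.58% of B-lineage cells. The same genes were detected in 85.6%, 44.9% and 44.7% of Ly6c2+ cells past the gate. In Ly6c2+ monocytes these shares were 74.5%, 18.0% and 19.2%, and in C1q macrophages 13.7%, 66.7% and 24.5%. Nos2 was detected in 35 members (12.03%) and Arg1 in 19 (6.53%), both in 4. B-lineage cells gave 1.05% and 1.64%, and Ly6c2+ cells past the gate 10.2% and 3.70%. After thinning the shares were 8.10% and 3.87% of members against 0.386% and 0.129% of B-lineage cells. The 3 highest cells held 56.6% of the UMIs of Arg1 and 41.1% of those of Nos2, with at most 62 and 72 UMIs in a cell. Spp1 was detected in 87 members (29.9%, 19.4% thinned), against 28.5% of Ly6c2+ monocytes (21.8% thinned) and 5.15% of B-lineage cells, and 10 cells held 53.8% of its UMIs. Timp1 and Lcn2 were detected in 18.9% and 21.6% of members, against 7.95% and 5.86% of Ly6c2+ monocytes. In Ly6c2+ cells past the gate they were detected in 15.9% and 18.3%, close to the members. Cxcl1 was detected in 214 members (73.5%, 65.1% thinned). Of the 12 DSS members, 1 held Arg1, 1 held Nos2 and 2 held Spp1.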

How the data were processed

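The 9 libraries were made with a droplet 3' kit and hold UMI counts per gene and barcode, which the authors obtained with Cell Ranger (the submitters' notes also name STAR 2.5.1b and build mm10). The deposited counts are not normalized. Barcodes with at most 15% mitochondrial UMIs and at least 200 genes were kept, following the study's limits. The members and gene lists were chosen with earlier results of these data known. Sums of counts for each class in each library were fitted with the quasi-likelihood test of edgeR 4.0.16 in R 4.3.3 (TMM, filterByExpr, library as a term, Benjamini-Hochberg, FDR 0.05). The fits left 1 residual degree of freedom, and the spread was moderated over genes. Genes of the rule and mitochondrial genes got no test. On simulated counts for the comparison with Ly6c2+ monocytes (8004 genes), with a dispersion of 0.1 for every gene, this fit recovered 16% of genes changed 4-fold and 0% of those changed 2-fold. That dispersion was set and not estimated from the data, where smaller changes were called. These shares therefore do not give the power of the fit on the data. Alternatives were DESeq2 1.42.0, other scalings, filters, gates and depths, Scrublet in scanpy 1.11.5, and 6 libraries with at least 5 cells. The comparison with Ly6c2+ cells past the gate and the 6-library fits were chosen after seeing the data. Conditions with 1 library were given as CPM with exact Poisson 95% intervals, which cover counting error only. Genes named were the 12 largest changes in each direction past FDR 0.05 with at least 50 CPM and the same sign in every library, up to 4 called genes per list, the 10 largest in each direction between conditions, and the markers, shortened for length. The text adds marker genes of phagocytes and other cell types. Libraries of a group are separate samples per the labels, which do not say whether mice were separate, so no p-value measures the spread between mice. The SEs and p-values of the class fits rest on 2 libraries of different conditions and on a spread moderated over genes. An SE can therefore be smaller than a gene's own difference between the 2 libraries. A gene met by the naming rule is not reported here.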

Additional observations from a re-analysis of the deposited data

Results flagged for a closer look

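For 5 genes called against Ly6c2+ monocytes, the members were higher in the Nlrc4 DSS library and lower in the DSS library, and the difference between the libraries was not tested. The log2 ratio of members to monocytes was 3.18 in the Nlrc4 DSS library and -0.44 in the DSS library for Ccl24, 2.92 and -2.91 for Il23a (a subunit of interleukin-23), 2.03 and -1.46 for Ifit1, 1.80 and -1.61 for Fabp5 (a fatty acid binding protein), and 1.74 and -1.76 for Mki67, a gene of dividing cells. In the DSS members Ccl24 and Il23a were at 0 UMIs, and Mki67 rested on 1 UMI against 412 in the Nlrc4 DSS members. Groups of 2 libraries were too small for a test of single libraries standing apart.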

How the results depend on the processing

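Of the named genes that were called in the 4 class comparisons, Fn1, Slpi, Fabp5, Csf3 and Spp1 changed direction under an alternative, and the others kept it wherever a value could be had. With a gate of at least 3 UMIs Fn1 was 0.11 against Ly6c2+ monocytes and 0.0572 against Ly6c2+ cells past the gate. This gate also let further libraries reach 10 members and enter the fits, so the gate and the set of libraries changed together. With each of 6 libraries left out in turn, the log2 fold change against Ly6c2+ monocytes ran from -0.20 to 0.57 for Slpi, -0.35 to 0.74 for Fabp5 and -0.31 to 0.57 for Csf3. Spp1 against C1q macrophages ran from -0.25 to 0.71. Slpi, Csf3 and Spp1 were negative when the DSS library was left out and the Nlrc4 DSS library kept. Fabp5 was negative when the Nlrc4 DSS library was left out. The cause was not tested. Calls numbered 486 against below-gate cells (136 with DESeq2, 25 without the library term, 59 thinned, 172 to 575 with a library left out), 228 against Ly6c2+ monocytes (29, 1, 100, and 97 to 201), 333 against C1q macrophages (71, 32, 77, and 302 to 433; 171 without doublets) and 76 against Ly6c2+ cells past the gate (1, 0, 1, and 0 to 3; 0 with a gate of at least 3 UMIs or over 6 libraries, where 147 and 107 had an unadjusted p under 0.05). Fewer genes could be tested in thinned cells, with a gate of at least 3 UMIs and over 6 libraries. The member share was 3.52% with a gate of at least 10 UMIs, 4.91% with at least 3, 14.0% without the Ly6c2 limit and 11.6% of Lyz2-high cells in the Nlrc4 DSS library, and 1.87% and 2.04% for the last 2 in the DSS library. With a library left out the difference from SPF colon ran from -0.275 to -0.0290 for germ-free and -0.335 to -0.197 for small intestine. Genes past the ratio within members numbered 888 with 20 CPM added and 1858 with at least 30 UMIs for Nlrc4 DSS against DSS, 652 and 1543 for Nlrc4 DSS against SPF colon, and 153 with at least 30 UMIs for DSS against SPF colon. No paired analysis was possible because the groups that share replicate numbers held 0 to 9 members per library and were given no fit, which also left the planned germ-free and small intestine tests within members, a minimum of 20 cells and the leaving out of a library from 2 not run.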
